A study of Homo sapiens with 8 samples.

Results

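The binding of IGF2BP1 to the NUCKS1 mRNA was mapped in H1299 cells treated with DMSO or with AVJ16. NUCKS1 was chosen by its number of 3'UTR peaks, one of the largest in these lists, so its peak counts and enrichments are a description and were not tested. Its peaks are those of the merged peak lists that lie on the minus strand within the gene (ENSG00000069275.13, chr1:205712822-205750182 on GRCh38, GENCODE release 44). They number 44 of the 22311 peaks with DMSO and 54 of the 22123 peaks with AVJ16.

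H1299 cells derive from a human lung carcinoma of the non-small cell type, and AVJ16 is a small molecule inhibitor of IGF2BP1. The cells were wild type, all came from a single thaw, and received either 0.01% DMSO or 1.5 µM AVJ16 for 24 h before crosslinking with UV light of 254 nm. Binding was measured by eCLIP, in which RNA crosslinked to the immunoprecipitated protein (IP) is sequenced beside a size-matched input (SMInput) made without the antibody, with 2 IP and 2 SMInput libraries for each treatment. Both replicates of a treatment are merged in 1 list, which gives each peak a −log10 p and a log2 fold enrichment of IP over SMInput. No value per replicate and no read count is given, so no replicate error could be attached to any value below, the depth is unknown, and differences between treatments were not tested. Each list was normalized to its own inputs. The lowest log2 fold enrichment in either list is 3.00, or 8-fold, and weaker binding is not listed. The column was read as log2, the scale used where the results are described, although the methods name the threshold as a plain fold enrichment of 3.

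IGF2BP1 is an oncofetal RNA-binding protein that contacts mRNAs through its KH and RNA recognition motif domains, mostly in 3'UTRs, and is known to protect bound mRNAs from decay. The KH domains are known to favour CAU followed by A, C or U, and binding has also been tied to the m6A consensus, whose core is GGAC. NUCKS1 encodes a highly phosphorylated nuclear protein that associates with chromatin, is a substrate of casein kinase and cyclin-dependent kinases, and acts in homologous recombination and in transcription at the start of S phase.

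The NUCKS1 peaks lay in the 3'UTR, all 44 with DMSO and all 54 with AVJ16. None lay in the coding sequence (732 nt with its stop codon), the 5'UTR or an intron, and none was listed on the opposite strand. The 3'UTR of the reference transcript (ENST00000367142.5, 6399 nt, 7 exons) runs from 205718279 down to 205712822, is 5458 nt long and lies within the last exon. Positions below are counted from 1 at the first base after the stop codon. Peaks of both lists that overlap or touch were joined into sites, which gave 21 sites numbered from the stop codon. Of these, 16 held peaks of both lists, 5 held an AVJ16 peak alone, and 0 held a DMSO peak alone.

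The stretches on which the map turns are shown as RNA, read from GRCh38 on the transcript strand, with the CAU tetramers (CAU followed by A, C or U) and GGAC in capitals. They are the most enriched peaks, the largest differences between the lists, the strongest site seen with AVJ16 alone and the last site of the 3'UTR. Peaks longer than 30 nt are shown by their central 30 nt.
Site 5, most enriched AVJ16 peak, chr1:205716874-205716901: aagcaggagGGACuagagaaacaaggca
Site 16, most enriched AVJ16 peak, centre, chr1:205715200-205715229: uacuuaauuugguacuggcucaaauagcau
Site 20, largest positive difference, centre, chr1:205713826-205713855: uucugagcaggaaggguaaaagacaggaac
Site 16, largest negative difference, chr1:205715234-205715257: guuugccccaguucaauccuCAUU
Site 13, largest positive difference outside site 20, chr1:205715470-205715496: aauggagugggcccagaggauaCAUUu
Site 11, most enriched of the sites with AVJ16 alone, chr1:205715757-205715781: cuagugugccuauggugaaauggca
Site 21, last site, AVJ16 peak, centre, chr1:205713474-205713503: cagucucuguauguaucugCAUAgacaaag

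Binding began far from the stop codon and ended well before the annotated end. The first bound base was 902 with DMSO and 907 with AVJ16, which leaves 901 nt after the stop codon without a peak. The last bound base was 4817 with DMSO and 4812 with AVJ16, which leaves the final 641 nt and 646 nt without a peak. Between these limits peaks covered 1595 nt (29.2% of the 3'UTR) with DMSO and 1775 nt (32.5%) with AVJ16. Between sites, the longest stretches without a peak in either list were 438 nt between sites 17 and 18, 382 nt between sites 9 and 10, and 339 nt between sites 18 and 19. The 7 sites longer than 100 nt held 66.8% of the bound bases, with 30 of the 44 peaks seen with DMSO and 36 of the 54 seen with AVJ16. When the 3'UTR was cut into 4 equal parts, DMSO peaks covered 423, 423, 463 and 286 nt from the stop codon onwards, and AVJ16 peaks covered 396, 590, 498 and 291 nt.

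**Figure D1:**
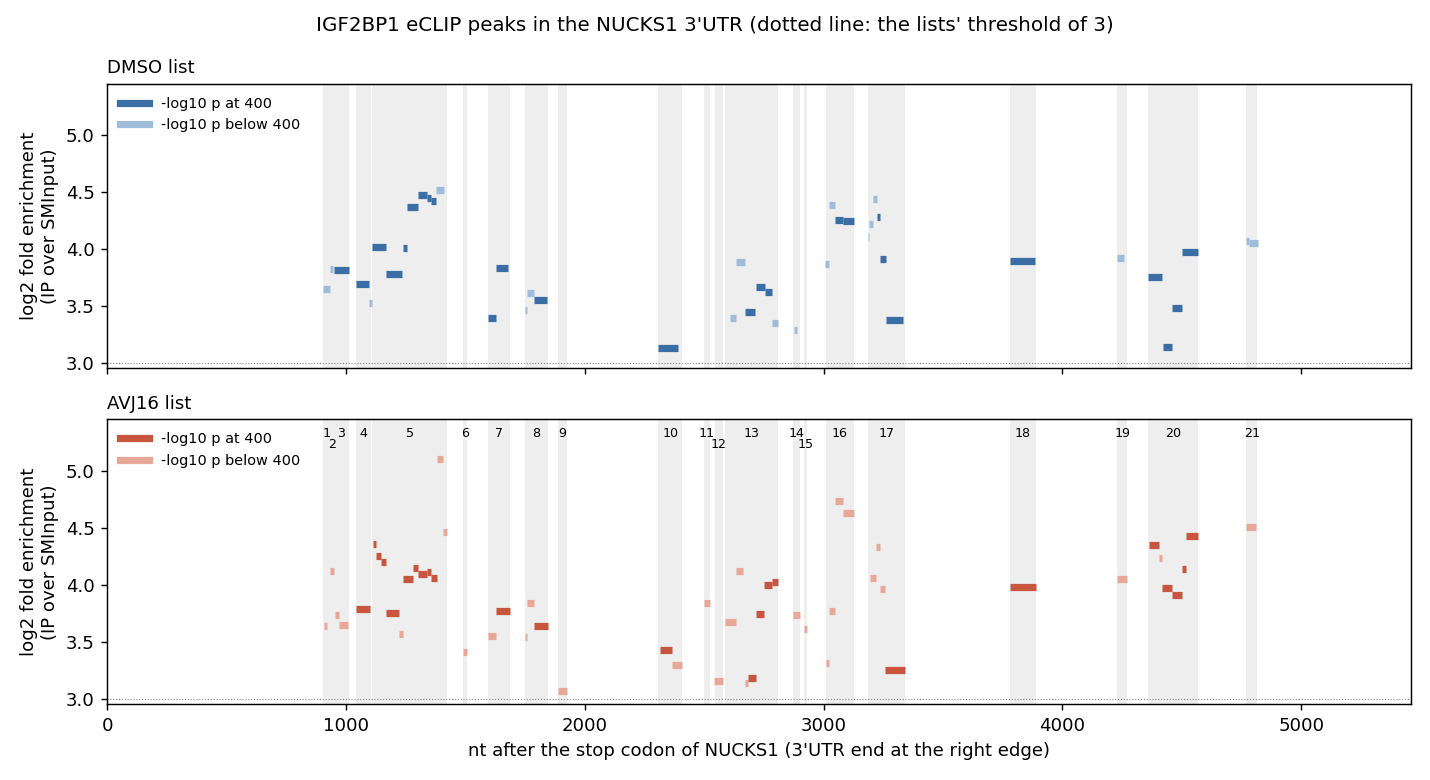
Log2 fold enrichment of IP over SMInput (vertical axis, no replicate error available) of each NUCKS1 peak against its position in nt after the stop codon (horizontal axis), with the DMSO list above and the AVJ16 list below. Each bar spans 1 peak, dark bars have a −log10 p at the limit of 400 and pale bars lie under it, and grey bands are the 21 numbered sites. Peaks occupy the middle of the 3'UTR, from position 902 to 4817 with DMSO and from 907 to 4812 with AVJ16, and the AVJ16 peak at 5.10 in site 5 is the highest bar.

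The peaks were short, and their median enrichment was somewhat above that of all 3'UTR peaks. Their median length was 32.0 nt with DMSO (6 to 106 nt) and 30.5 nt with AVJ16 (9 to 109 nt), against 69.0 nt and 62.0 nt over all 3'UTR peaks of the lists. The median log2 fold enrichment was 3.85 with DMSO (3.13 to 4.51) and 3.94 with AVJ16 (3.07 to 5.10), against 3.71 and 3.67 over all 3'UTR peaks. A value of 4 or more was reached by 16 of 44 peaks with DMSO (36.4%) and by 23 of 54 with AVJ16 (42.6%), while the lists' 3'UTR peaks reached it in 33.3% and 30.7% of cases. The most enriched NUCKS1 peak was exceeded by 13.7% of the 3'UTR peaks with DMSO and by 3.28% with AVJ16.

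The −log10 p values set NUCKS1 further apart from the lists than its enrichments did. The upper limit of 400 was reached by 26 of 44 peaks with DMSO (59.1%), where 2.88% of 3'UTR peaks and 3.03% of all peaks are at the limit. With AVJ16 it was reached by 24 of 54 peaks (44.4%), where the background is 3.35% of 3'UTR peaks and 3.61% of all peaks. A −log10 p grows with the number of reads as well as with the enrichment, and the reads behind these peaks are unknown. The other NUCKS1 peaks had values from 37.3 to 84.0 with DMSO (18 peaks) and from 32.6 to 85.3 with AVJ16 (30 peaks), so none lay close to the lists' threshold of 3.

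Sites 1 to 3 lay side by side with gaps of 1 nt, from position 902 to 1010. Site 1 (chr1:205717349-205717378, 30 nt) held 1 peak in each list, with log2 fold enrichments of 3.65 with DMSO and 3.64 with AVJ16. Site 2 (chr1:205717332-205717347, 16 nt) held 1 peak in each list, at 3.82 with DMSO and 4.12 with AVJ16. The AVJ16 peak was the higher one here, whereas the first site was nearly level. Site 3 (chr1:205717270-205717330, 61 nt) held 1 DMSO peak at 3.81 with a −log10 p at the limit, and 2 AVJ16 peaks at 3.73 and 3.65 with values of 52.2 and 62.4. It contains an AAUAAA, the canonical polyadenylation signal, at position 965, one of 5 in the 3'UTR. The AAUAAA nearest to the annotated end starts at position 5433 and its last base lies 20 nt before that end.

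Sites 4 and 5 were separated by 2 nt. Site 4 (chr1:205717174-205717239, 66 nt, positions 1041 to 1106) held 2 DMSO peaks, at 3.69 and 3.52, and 1 AVJ16 peak at 3.79. Site 5 (chr1:205716857-205717171, 315 nt, positions 1109 to 1423) was the longest of the map, with 8 DMSO peaks and 12 AVJ16 peaks. Of these, 7 DMSO peaks and 9 AVJ16 peaks had a −log10 p at the limit. From the 5′ end of site 5, the first 3 DMSO peaks had log2 fold enrichments of 4.01, 3.78 and 4.01, and the AVJ16 peaks that overlap them most had 4.20, 3.75 and 4.05. The next 4 DMSO peaks, at positions 1257 to 1377, had enrichments of 4.37, 4.47, 4.45 and 4.42. The AVJ16 peaks paired with them were all lower, at 4.05 (also the partner of the third DMSO peak), 4.10, 4.11 and 4.06. One of these 4, chr1:205716943-205716978, was the only NUCKS1 peak with the same start and end in both lists, and its difference was −0.38. The last DMSO peak of site 5, at positions 1378 to 1408, was the most enriched NUCKS1 peak of that list at 4.51, and its AVJ16 partner was the most enriched of the other list at 5.10. Site 5 thus held 4 neighbouring peaks that were lower with AVJ16 and, directly 3′ of them, 1 that was higher by 0.59. A further AVJ16 peak at 4.46 followed at positions 1408 to 1423. Averaged over the bases of each list, the site stood at 4.18 with DMSO and 4.14 with AVJ16.

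Sites 6 to 9 were spread between positions 1491 and 1924, and 2 of them were seen with AVJ16 alone. Site 6 (chr1:205716773-205716789, 17 nt) held a single AVJ16 peak at 3.41 with a −log10 p of 40.4. Site 7 (chr1:205716593-205716685, 93 nt) held 2 peaks in each list, at 3.39 and 3.83 with DMSO and 3.54 and 3.77 with AVJ16. Its 2 pairs of peaks differed in opposite directions, by 0.15 and −0.06. Site 8 (chr1:205716434-205716532, 99 nt) held 3 peaks in each list, at 3.46, 3.61 and 3.55 with DMSO and 3.54, 3.84 and 3.64 with AVJ16, each higher with AVJ16. It contains the only UCAUUC of the 3'UTR. Site 9 (chr1:205716356-205716392, 37 nt) held a single AVJ16 peak at 3.07, the least enriched NUCKS1 peak of that list.

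Sites 10 to 12 lay between positions 2307 and 2578. Site 10 (chr1:205715873-205715973, 101 nt) held 1 DMSO peak of 83 nt at 3.13, the least enriched NUCKS1 peak with DMSO, although its −log10 p was at the limit. With AVJ16 it held 2 peaks, at 3.43 and 3.29. Site 11 (chr1:205715757-205715781, 25 nt) and site 12 (chr1:205715702-205715737, 36 nt) each held a single AVJ16 peak, at 3.84 and 3.15, and no DMSO peak.

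Sites 13 to 15 ran from position 2588 to 2931. Site 13 (chr1:205715470-205715692, 223 nt) held 6 DMSO peaks and 7 AVJ16 peaks. Its DMSO peaks had enrichments of 3.39, 3.89, 3.45, 3.67, 3.62 and 3.35 from the 5′ end, and their AVJ16 partners had 3.68, 4.12, 3.18, 3.75, 4.00 and 4.02. With AVJ16, 5 of the 6 were higher, and the difference was largest at the 3′ end of the site, where it was 0.68. Site 14 (chr1:205715380-205715408, 29 nt) held a DMSO peak of 12 nt at 3.28 and an AVJ16 peak of 29 nt at 3.73. Site 15 (chr1:205715349-205715362, 14 nt) held a single AVJ16 peak at 3.61 with a −log10 p of 32.6, the lowest of the NUCKS1 peaks in either list.

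Site 16 (chr1:205715153-205715272, 120 nt, positions 3008 to 3127) held 4 peaks in each list and differed in opposite directions at its 2 ends. From the 5′ end the DMSO peaks had log2 fold enrichments of 3.87, 4.38, 4.25 and 4.25. The AVJ16 peaks paired with them had 3.31, 3.77, 4.74 and 4.63. The first 2 were lower with AVJ16, with differences of −0.56 and −0.62. They are the only shared NUCKS1 peaks lower by more than 0.5, the size limit in the study's methods. The study applied that limit to clusters that had also passed a test on read counts, which could not be run here. The last 2 peaks of site 16 were higher by 0.49 and 0.39. Both of these had a −log10 p at the limit with DMSO, while the values with AVJ16 were 78.6 and 83.7, so the p-values and the enrichments differed in opposite directions there. Site 16 holds 2 CCNGUU motifs (N is any base), one at position 3020 that spans the boundary of its first 2 DMSO peaks and one at 3030 within the second.

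Site 17 (chr1:205714939-205715095, 157 nt, positions 3185 to 3341) held 6 DMSO peaks and 4 AVJ16 peaks and is the only one of the 16 sites in both lists that has an unpaired DMSO peak. That peak spans 6 nt at its 5′ end, with an enrichment of 4.11 and a −log10 p of 43.9. The other 5 DMSO peaks had enrichments of 4.22, 4.44, 4.28, 3.91 and 3.38, and the AVJ16 peaks that overlap them most had 4.06, 4.06, 4.33, 3.97 and 3.25. The first of these AVJ16 peaks is the partner of 2 DMSO peaks. Differences in site 17 ran from −0.38 to 0.06.

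The 4 last sites were each higher with AVJ16. Site 18 (chr1:205714390-205714500, 111 nt) held 1 long peak in each list, of 106 nt with DMSO at 3.90 and of 109 nt with AVJ16 at 3.98, both with a −log10 p at the limit. Site 19 (chr1:205714008-205714050, 43 nt) held 1 peak in each list, at 3.92 with DMSO and 4.05 with AVJ16. Site 20 (chr1:205713713-205713922, 210 nt, positions 4358 to 4567) held 4 DMSO peaks and 6 AVJ16 peaks, of which all 4 and 5 had a −log10 p at the limit. Its DMSO peaks had enrichments of 3.75, 3.13, 3.48 and 3.97, and their AVJ16 partners had 4.35, 3.97, 3.91 and 4.43. All 4 were higher with AVJ16, by 0.60, 0.84, 0.43 and 0.46, and the second of these was the largest difference in NUCKS1. Site 21 (chr1:205713463-205713511, 49 nt), the last, held 2 DMSO peaks at 4.07 and 4.05 and 1 AVJ16 peak at 4.51.

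Most of the map was shared by both treatments. Of the 44 DMSO peaks, 43 overlapped an AVJ16 peak by at least 1 nt (97.7%, 95% Wilson interval 88.2% to 99.6%), where 70.5% of 3'UTR peaks and 66.2% of all DMSO peaks did. Of the 54 AVJ16 peaks, 49 overlapped a DMSO peak (90.7%, 80.1% to 96.0%), where 75.2% of 3'UTR peaks and 70.8% of all AVJ16 peaks did. These intervals cover counting error only, and touching peaks of 1 site are not independent. In the 5 genes nearest in peak numbers, named below, 82.7% to 95.6% of the 3'UTR peaks with DMSO overlapped an AVJ16 peak. Among 3'UTR peaks with a −log10 p at the limit the shares were 98.7% and 95.9%. Only 26 of the 44 and 24 of the 54 NUCKS1 peaks are in that class, and peaks below the limit were not compared. By bases, 1518 nt were bound in both lists, 77 nt with DMSO only and 257 nt with AVJ16 only. The bases in both lists made up 95.2% of the bases bound with DMSO and 85.5% of those bound with AVJ16 in NUCKS1, against 56.2% and 62.0% over all peaks. The 5 AVJ16 peaks without a DMSO partner had lengths of 14 to 37 nt, enrichments of 3.07 to 3.84 and −log10 p of 32.6 to 44.5. The lengths lie on both sides of the NUCKS1 median of 30.5 nt with AVJ16. The enrichments lie on both sides of 3.67, the median of all 3'UTR peaks with AVJ16. All 5 lay below the median enrichment of the NUCKS1 peaks with AVJ16, and none was at the p limit. A DMSO signal at these 5 sites below the thresholds would not be listed.

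At the 43 shared DMSO peaks, AVJ16 minus DMSO had a median of 0.10 on the log2 scale and ranged from −0.62 to 0.84. The median was −0.06 over all 14759 shared peaks and −0.07 over the 11720 shared 3'UTR peaks. The difference was positive at 29 of the 43 NUCKS1 peaks (67.4%), while 44.5% of the shared 3'UTR peaks were positive. Lower by more than 0.5 were 2 peaks, where 21.3% of shared 3'UTR peaks and 20.1% of all shared peaks are lower by that much. Higher by more than 0.5 were 4 peaks, where 13.0% of shared 3'UTR peaks and 12.6% of all shared peaks are. The remaining 37 (86.0%) were within 0.5, against 65.7% of shared 3'UTR peaks. The SD of the differences was 0.338 in NUCKS1 and 0.556 over all shared peaks. It was 0.364 over the 473 shared 3'UTR peaks with a −log10 p at the limit with DMSO. Only 26 of the 43 NUCKS1 peaks belong to that class. Among those 473 peaks, 14.8% were lower and 3.59% higher by more than 0.5. The 26 NUCKS1 peaks in that class held 0 lower and 2 higher ones. The 43 shared peaks have 39 distinct AVJ16 partners, and neighbouring peaks of 1 site come from the same transcript and libraries, so they are not replicates. Enrichments of paired peaks correlated across the 43 peaks (Pearson r = 0.626).

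**Figure D2:**
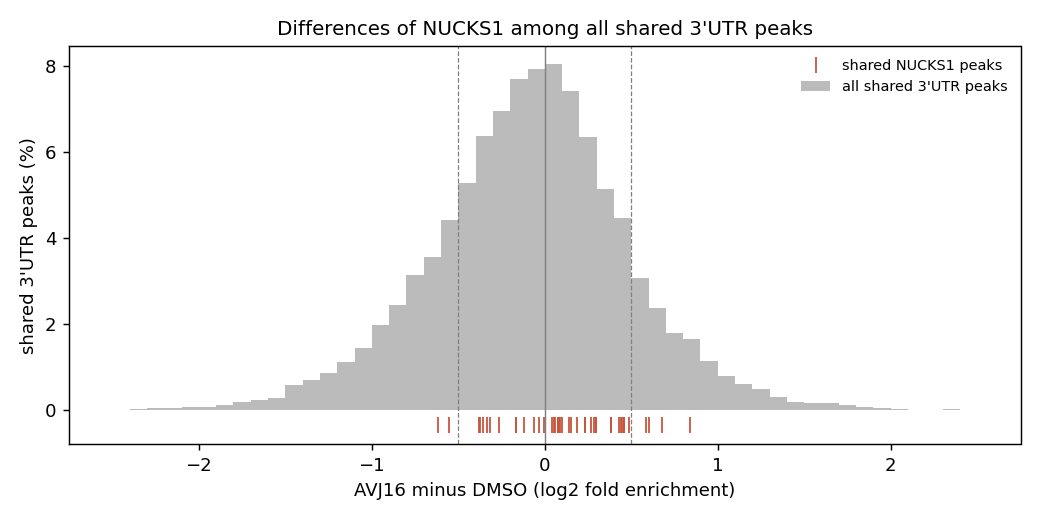
Distribution of AVJ16 minus DMSO in log2 fold enrichment (horizontal axis) over the 11720 shared 3'UTR peaks, as the percent of these peaks per bin of 0.1 (grey bars, vertical axis), with the 43 shared NUCKS1 peaks as red ticks below zero on that axis. Dashed lines mark −0.5 and 0.5, and 37 of the 43 ticks lie between them.

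The differences were not spread evenly along the 3'UTR. In the first of 4 equal parts, 5 of 11 shared DMSO peaks were higher with AVJ16, with a median difference of −0.01. In the second part 8 of 11 were higher (median 0.15), and in the third 9 of 14 (median 0.07). In the last part 7 of 7 were higher, with a median of 0.46 and a lowest difference of 0.14. These 7 peaks lie in sites 19, 20 and 21 only. The 2 DMSO peaks of site 21 have the same AVJ16 partner, which therefore enters this count and the count by site 2 times. Counted by site, all 8 shared DMSO peaks of sites 18 to 21 were higher with AVJ16, by 0.08 to 0.84, while 21 of 35 were higher in sites 1 to 17, with a median of 0.08. The mean over the bases in both lists was higher with AVJ16 at 12 of the 16 sites in both lists and lower at 4, which were sites 1, 3, 5 and 17. That mean was largest in site 20, at 0.53, followed by sites 21 and 14, both at 0.45. This pattern was seen after the values were known and rests on 1 merged list per treatment.

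**Figure D3:**
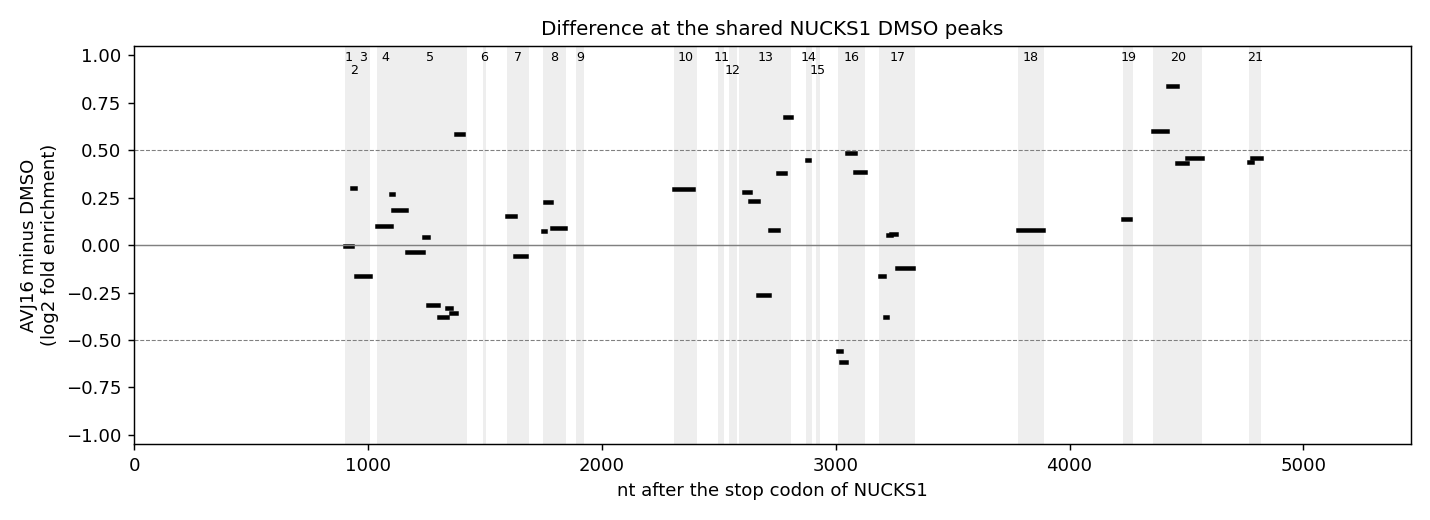
AVJ16 minus DMSO in log2 fold enrichment (vertical axis, no replicate error available) at each of the 43 shared NUCKS1 DMSO peaks, drawn over the peak's span in nt after the stop codon (horizontal axis). Grey bands are the 21 numbered sites and dashed lines mark −0.5 and 0.5. The 8 peaks from site 18 on lie above 0, and sites 5 and 16 hold peaks on both sides of 0.

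Among the shared DMSO peaks, the −log10 p was at the limit in both lists for 20, with DMSO only for 6, with AVJ16 only for 2 and in neither for 15. More NUCKS1 peaks therefore left the limit than reached it with AVJ16, while the median enrichment was slightly higher. The read numbers that would set these 2 measures side by side are unknown. Over all 3'UTR peaks, 2.88% were at the limit with DMSO and 3.35% with AVJ16. Peak lengths also differ between the lists. In site 3 the DMSO peak at the limit spans 61 nt, while the AVJ16 peaks there, below the limit, span 17 and 38 nt.

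By number of 3'UTR peaks NUCKS1 ranked 3 of 4338 genes with a 3'UTR peak in the DMSO list, and 3 of 3876 in the AVJ16 list, level with 1 other gene. The rank was also 3 in both lists when touching peaks were joined, again level with 1 other gene with AVJ16. By 3'UTR peaks at the p limit it ranked 3 with DMSO and 5 with AVJ16, the latter level with 1 other gene. Scaled to 3'UTR length, the gene was less extreme. It had 8.06 peaks per kb with DMSO and 9.89 with AVJ16, which ranked 64 of 1188 and 56 of 1167 among genes with at least 5 3'UTR peaks. Its most enriched peak ranked 1040 of 4338 with DMSO and 289 of 3876 with AVJ16, so many genes with fewer peaks have a higher one. By median enrichment it ranked 503 of 1188 with DMSO and 329 of 1167 with AVJ16, among genes with at least 5 3'UTR peaks.

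The 5 genes whose numbers of 3'UTR peaks in both lists were nearest to those of NUCKS1 (44 and 54) were SCD, AMOT, SLC7A1, SLC38A1 and CBX5. SCD, a desaturase that makes monounsaturated fatty acids, had 41 peaks with DMSO and 56 with AVJ16. AMOT, a scaffold protein of cell junctions, had 45 and 50. The amino acid transporter genes SLC7A1 and SLC38A1 had 38 and 54 and 41 and 60, and CBX5, which encodes the heterochromatin protein HP1 alpha, had 52 and 53. Other measures differed among these genes. Median differences between the lists were −0.01 for SCD, 0.02 for AMOT, 0.22 for SLC7A1, 0.18 for SLC38A1 and −0.39 for CBX5, beside 0.10 for NUCKS1. Shared peaks lower and higher by more than 0.5 numbered 0 and 0 of 38 in SCD and 3 and 3 of 43 in AMOT. They numbered 2 and 8 of 35 in SLC7A1, 0 and 7 of 39 in SLC38A1 and 18 and 1 of 43 in CBX5. NUCKS1 had 2 and 4 of 43. CBX5 had no peak at the p limit in either list. SCD had 30 peaks at the limit with DMSO and all 56 with AVJ16. The share of the 3'UTR in peaks ran from 25.4% (CBX5) to 36.1% (AMOT) among these 5 with DMSO, a range that includes the 29.2% of NUCKS1. The share of DMSO peaks that overlapped an AVJ16 peak was 95.6% for AMOT, 95.1% for SLC38A1 and 92.7% for SCD. It was 92.1% for SLC7A1 and 82.7% for CBX5, beside 97.7% for NUCKS1.

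**Figure D4:**
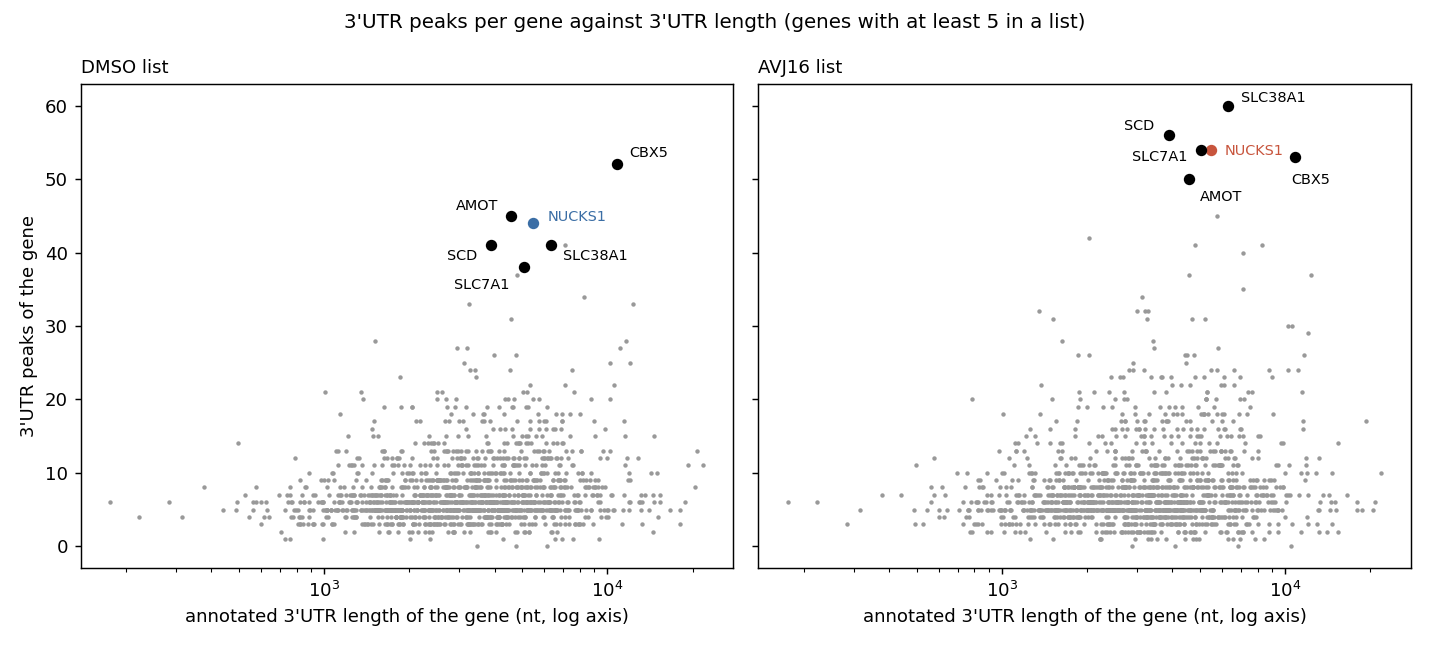
Number of 3'UTR peaks of each gene (vertical axis) against its annotated 3'UTR length in nt (horizontal log axis) in the DMSO and AVJ16 lists, for genes with at least 5 such peaks in either list. The coloured point is NUCKS1, with 44 and 54 peaks on 5458 nt, and black points are the 5 genes nearest to it in peak numbers.

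The bound bases of NUCKS1 were richer in C and poorer in U than the rest of its 3'UTR. Inside the peaks of either list C made up 21.1% and U 32.1%, and outside them 15.8% and 36.3%. In 3'UTR peaks of other genes C made up 23.3% and U 31.1%. Motifs were searched on the transcript strand only, counting overlapping matches and only matches wholly inside or outside peaks. Runs of UUUUU were at 5.94 per kb inside the NUCKS1 peaks and 18.6 per kb outside, against 3.40 in peaks of other genes. AUUUA, the core of AU-rich elements that mark mRNAs for decay, occurred once inside the peaks, in site 10, and 8 times outside.

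The CAU tetramers occurred 32 times inside peaks (17.3 per kb) and 44 times outside (12.2 per kb), against 16.1 per kb in peaks of other genes. The form ending in A, CAUA, accounted for most of this gap, at 6.48 per kb inside and 2.77 outside. At least 1 tetramer was present in 13 of the 21 sites, with 7 in site 5, 5 in site 13 and 4 in site 20. None was present in sites 1, 2, 3, 7, 10, 11, 12 and 15. In windows of 30 nt centred on each peak, 17 of 44 DMSO peaks held one (38.6%) and 19 of 54 AVJ16 peaks (35.2%), against 36.6% and 35.2% of the 3'UTR peaks of other genes, which is nearly the same. The DMSO peak with the largest positive difference, in site 20, holds none over its full length. In site 16 a CAUU at positions 3078 to 3081 lies within the most enriched AVJ16 peak, and the printed centre of that peak ends before the last base of the motif. In site 5 a CAUU at positions 1405 to 1408 runs past the 3′ end of the most enriched AVJ16 peak.

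GGAC occurred 5 times inside peaks, in sites 5 (2 matches), 8, 10 and 12, and 8 times outside, at 2.70 and 2.22 per kb. The most enriched AVJ16 peak, in site 5, holds one of them. In windows of 30 nt it was found in 9.09% of DMSO peaks and 9.26% of AVJ16 peaks, against 6.45% and 6.84% in other genes. CCNGUU was found 4 times inside peaks, in sites 3, 16 (2 matches) and 18, and 5 times outside, at 2.16 and 1.39 per kb. It lay in 3 of 44 DMSO windows (6.82%) and 3 of 54 AVJ16 windows (5.56%), against 2.94% and 2.68% in other genes. UCCAG went the other way, in 1 of 44 windows (2.27%) and 2 of 54 (3.70%), against 4.47% and 4.58%. It was found 2 times inside peaks, in sites 3 and 13, and 3 times outside, at 1.08 and 0.83 per kb. Its density in peaks of other genes was 1.56 per kb. ACACCC, which forms part of the zipcode that IGF2BP1 binds in the ACTB mRNA, occurred once in the 3'UTR, in site 5. Not in the 3'UTR were CGGAC, which is the other part of that zipcode, and CUACCUC, which is the match to the let-7 seed. The same held for the motif UUUCCGAA, for GNGGCCC and for UCCUNNUGG. UGUANAUA, the Pumilio motif, occurred once and outside the peaks. These are matches of letters and not measured contacts.

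**Figure D5:**
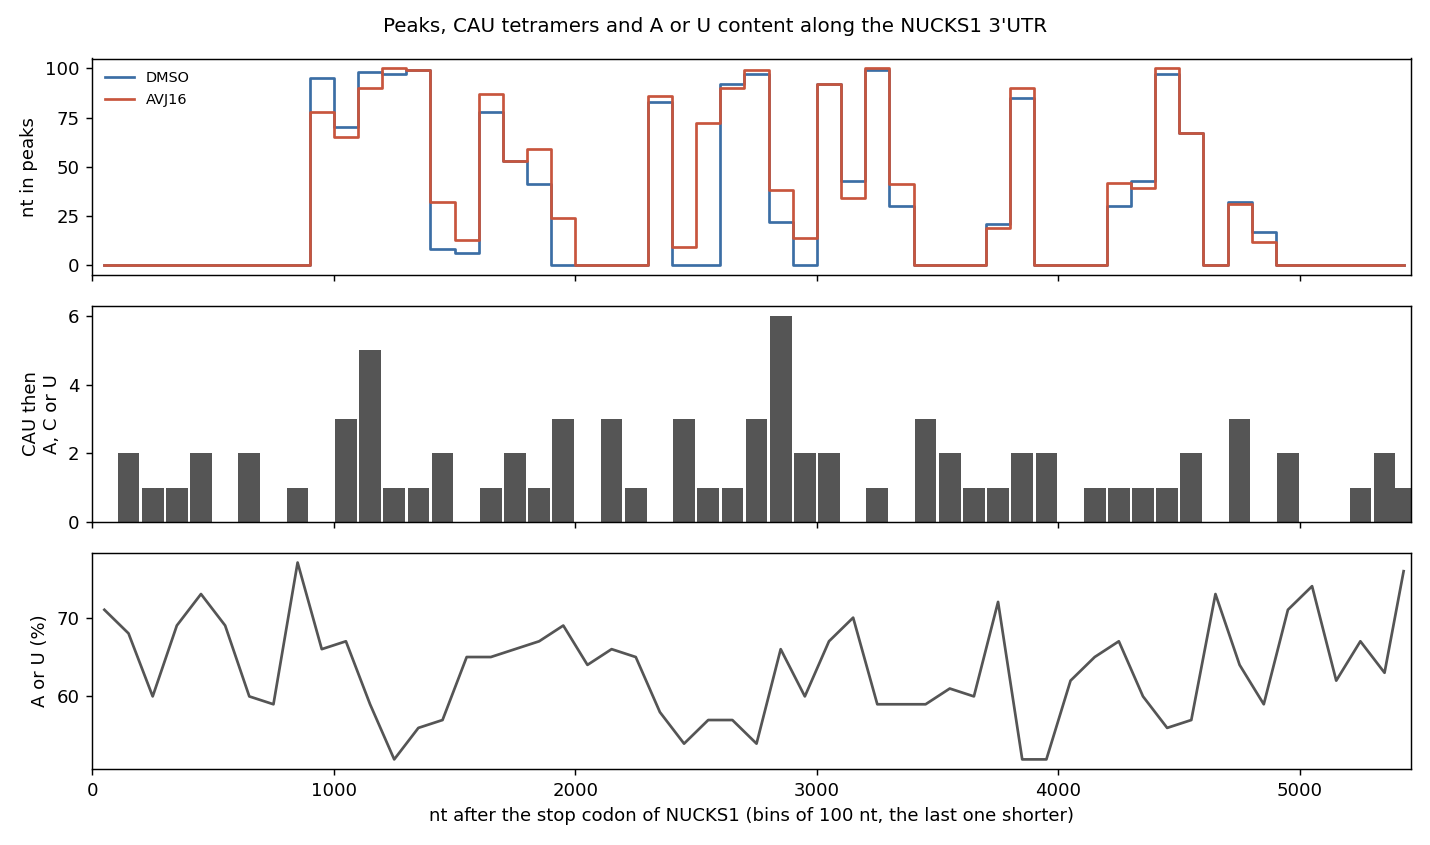
Bases in peaks with DMSO (blue) and AVJ16 (red), starts of CAU followed by A, C or U, and percent of A or U, each per bin of 100 nt (vertical axes) along the NUCKS1 3'UTR in nt after the stop codon (horizontal axis, last bin shorter). Bins of the first 900 nt hold no bound base, and the bins with the most tetramers are 2801 to 2900 with 6 starts, where 22 nt were bound with DMSO and 38 nt with AVJ16, and 1101 to 1200 with 5 starts, where 98 and 90 nt were bound.

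Peaks were also counted in genes tied to NUCKS1 by function or position. None of these genes had a peak with a −log10 p at the limit. Such peaks are rare, at 3.03% of all peaks with DMSO and 3.61% with AVJ16, so their absence does not set these genes apart. As NUCKS1 was chosen by its peak number, that number is not compared with theirs. Its paralog RAD51AP1, which also acts in homologous recombination, had 1 3'UTR peak in each list, at 3.97 with DMSO and 3.62 with AVJ16. Of 15 genes of homologous recombination, 3 were bound with DMSO and 5 with AVJ16, and 10 in neither list. For comparison, 24.8% and 22.3% of the 20046 protein-coding genes, expressed or not, were bound in the DMSO and AVJ16 lists, so such small counts do not set the list apart. WDR48 and USP1, which together form a deubiquitinase complex, had 11 and 10 and 4 and 5 peaks. RPA1, a subunit of the protein that coats single-stranded DNA, had 2 and 1, and BRCA1 and RAD51C had 1 peak each, with AVJ16 only. Of 7 kinase and cyclin genes 3 were bound in both lists. CSNK2A1 and CSNK2A2, the catalytic subunits of casein kinase 2, had 12 and 10 and 2 and 3 peaks, and CCNA2, which encodes cyclin A2, had 4 and 2. SKP2, a ubiquitin ligase subunit whose gene is a known NUCKS1 target, had 7 and 4 peaks, of which 6 and 4 lay in the coding sequence. CKS1B, its cofactor, had 1 peak with AVJ16 only, and CDKN1B, which encodes the SKP2 substrate p27, had none. Of 6 chromosomal neighbours, ELK4 had 4 and 3 peaks, RAB29 2 and 2, and SLC41A1 13 and 21, while SLC45A3, PM20D1 and SLC26A9 had none.

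Of these genes, 11 had a peak shared by both lists, and their median differences had both signs. They were negative for 7, at −1.10 for SKP2, −0.71 for RPA1, −0.50 for WDR48, −0.48 for CCNA2, −0.42 for CSNK2A1, −0.35 for RAD51AP1 and −0.14 for ELK4. They were positive for 4, at 0.26 for RAB29, 0.25 for CSNK2A2, 0.06 for SLC41A1 and 0.03 for USP1, beside 0.10 for NUCKS1. The medians of RPA1, CCNA2, RAD51AP1, ELK4 and RAB29 rest on 1 shared peak each. Counted by peak, 44.5% of all shared 3'UTR peaks were positive and their median was −0.07, so negative values were common in these lists.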

How the data were processed

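The eCLIP peaks of H1299 cells were grouped by treatment as labelled. The authors trimmed reads, discarded those from repeats, mapped with STAR, removed PCR duplicates, called peaks with CLIPper and compared IP with SMInput reads. The authors deposited 1 merged list per treatment with the −log10 p of each peak, capped at 400, and its log2 fold enrichment. How replicates were merged, and the versions of the tools, are not given in the sources used here. The methods name an older Gencode release than GRCh38 uses, so peaks were assigned with GENCODE release 44, CDS before 3'UTR. Regions were assigned, and bases shared over all peaks counted, with bedtools 2.31.1. For each peak with DMSO, the peak with AVJ16 of largest overlap was its partner, and enrichments were subtracted. Python 3.11.15, numpy 2.4.6, scipy 1.17.1, pysam 0.24.0 and matplotlib 3.10.9 were used. Pairing, joining and the search for motifs were run on simulated data with known answers. The gene, the gene lists and the motifs were chosen with earlier results of these data known. Named were genes of these lists and the 5 genes nearest in peak numbers. Joining gaps of up to 3 nt and the mean per base were added after seeing the data. One gene of the homologous recombination list is not reported here.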

Additional observations from a re-analysis of the deposited data

How the results depend on the processing

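Raising the log2 fold enrichment threshold to 4 left 16 NUCKS1 peaks with DMSO and 23 with AVJ16, covering 7.91% and 11.65% of the 3'UTR. The overlapping share was then 87.5% with DMSO and 65.2% with AVJ16, and the rank by peak number became 14 and 10. Those ranks were held by 2 and 4 genes, NUCKS1 among them. Joining peaks that touch gave 22 and 25 stretches, and joining gaps of up to 3 nt gave 13 and 21. Requiring an overlap of 50% of both peaks gave shares of 84.1% and 68.5%. Per kb of 3'UTR the rank was 64 and 56. Centring on the median of all shared peaks left 1 peak lower and 8 higher by more than 0.5, and a limit of 1 left 0 and 0. The median difference stayed positive under each alternative run, between 0.09 and 0.16. A −log10 p of at least 20 changed no value. No paired analysis was possible because each list holds both replicates merged, and no replicate could be left out for the same reason. The depth is unknown, so sites below the thresholds cannot be told from unbound ones.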
